A study of Homo sapiens with 12 samples.

Results

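Among the human names on the array, 3 stand for pieces of abundant housekeeping RNAs that were listed as microRNAs: miR-923 and miR-1826, fragments of ribosomal RNA, and miR-1246, a fragment of the U2 small nuclear RNA. They were taken by name (hsa-miR-923_v12.0, hsa-miR-1826 and hsa-miR-1246), as 3 of 851 human names. In the files hsa-miR-1826 ends in a version tag, ignored in matching. The cells were SUM159, a human triple-negative breast cancer line, stably infected with a PLKO.1 lentiviral vector. The vector expressed an shRNA against Dicer or a scrambled control shRNA. Each line received 0.5 mM metformin, an antidiabetic drug, or vehicle (PBS) for 24 h. This gave 4 groups of 3 biological replicates: Dicer shRNA with metformin, control shRNA with metformin, Dicer shRNA with vehicle and control shRNA with vehicle. All 12 cultures grew in DMEM/F-12 with 5% FBS, 5 µg/ml insulin and 0.5 µg/ml hydrocortisone. Whether each shRNA line is a pool or a clone is not given in the sources used here, and the scrambled shRNA is the control for the vector that all cells carry. The question of the series was what metformin does to the microRNAs of these cells, and whether that depends on Dicer.

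Dicer is the RNase that cuts hairpin precursors into mature microRNAs. Ribosomal RNA is processed from a long precursor by other nucleases: miR-923 corresponds to a stretch of the 28S RNA and miR-1826 to a stretch of the 5.8S RNA, and both entries were later withdrawn from the microRNA registry. U2, a part of the spliceosome that pairs with the intron branch point, contains a stretch that is nearly the same as the listed miR-1246, and much of the small RNA read as miR-1246 in human cells has been traced to it. A probe for such a name can bind the fragment wherever it came from, so the signals describe RNA that hybridised to the probe and not a microRNA gene.

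Of the 3 names, 1 has a sequence in the RefSeq table used here (GRCh38.p14), and that is miR-1246. It is shown because its mature form is the stretch that U2 nearly matches, with miR-21 beside it as a canonical Dicer product. The hairpin MIR1246 lies on the minus strand at chr2:176600980-176601052, and no other gene of the RefSeq table spans it. In the mature sequences the capitals mark the seed, bases 2 to 8, and in the hairpin they mark the mature part.
miR-1246 mature: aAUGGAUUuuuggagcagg
miR-21-5p mature: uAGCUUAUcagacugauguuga
MIR1246 hairpin: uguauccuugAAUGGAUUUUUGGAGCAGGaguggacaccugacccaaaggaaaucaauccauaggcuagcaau
The mature miR-1246 has 19 bases, against a median of 22 over the 2370 mature human names of the table, of which 9.11% have 19 or fewer. No other mature name of the table shares its seed. The RefSeq gene table lists 5 entries each of the 28S and 5.8S ribosomal RNA genes and 2 genes and 69 pseudogenes of U2. The array files name no coordinates, and a signal was not assigned to any of these loci.

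Each array gave 1 total signal per name, an intensity with no unit, and a detection flag. The arrays detected 130 to 204 human names, and 98 were detected on all 12. Signals were scaled by the 75th percentile of those 98 names (factors 0.869 to 1.20). All metformin arrays were on slide 2 and all vehicle arrays on slide 1: drug and slide cannot be told apart. The Dicer shRNA arrays followed the control shRNA arrays in position on each slide, so that position and shRNA cannot be told apart. Dicer mRNA is not measured on a microRNA array, and its knockdown could not be examined. All 6 microRNAs listed as markers of a basal breast cancer line were detected on at least 1 array. So were 1 of 6 epithelial markers (miR-205), 2 of 7 blood cell, 2 of 4 muscle, 0 of 2 neuron and 0 of 1 liver markers. Of the basal markers, miR-125b was detected on 10 of 12 arrays, with 1 of 3 in control shRNA cells with metformin, and the others on all 12. The basal markers summed to 280 to 393.2 in Dicer shRNA cells with metformin, 89.0 to 121.8 in control shRNA cells with metformin, 590.4 to 716.1 in Dicer shRNA cells with vehicle and 1864 to 2092 in the vehicle-treated control line. In these bulk samples, fewer cells with a given RNA and less of it per cell cannot be told apart. Precision is limited by having 3 arrays in a group.

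miR-923 was the brightest human name on all 12 arrays and took most of the summed human signal. Its share was 82.1% ± 1.57 in Dicer shRNA cells with metformin, 80.7% ± 1.39 in control shRNA cells with metformin, 83.6% ± 0.807 in Dicer shRNA cells with vehicle and 78.5% ± 0.685 in control shRNA cells with vehicle, each as mean ± SD of 3 arrays. The files put its signal error at 7.07% to 7.21% of the signal on each array. They hold no saturation flag for any name, so saturation of the miR-923 signal could not be examined. miR-1826 took 0.00431% to 0.101% of the summed signal, with errors of 10.1% to 18.3%. miR-1246 took 0.00212% to 0.105% on the 11 arrays that detected it, with errors of 9.59% to 31.8%. The detected scaled signals spanned 2.00-fold over the arrays for miR-923, 13.7-fold for miR-1826 and 26.6-fold for miR-1246.

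In the scaled values miR-923 and miR-1246 had opposite groups at the ends of their ranges. miR-923 had signals of 124495, 144814 and 136269 in Dicer shRNA cells with metformin and of 168868, 177908 and 164628 in control shRNA cells with metformin. It had 132272, 135540 and 125948 in Dicer shRNA cells with vehicle and 95304, 88740 and 89179 in control shRNA cells with vehicle. The control shRNA cells thus held both ends of its range, highest with metformin and lowest with vehicle, and the Dicer shRNA groups lay between them and overlapped each other.

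miR-1826 had signals of 36.1, 71.2 and 55.2 in Dicer shRNA cells with metformin, against 9.19, 14.7 and 8.93 in control shRNA cells with metformin. It had 77.5, 110 and 96.7 in Dicer shRNA cells with vehicle, against 122, 82.1 and 109 in control shRNA cells with vehicle. The 2 vehicle groups overlapped, both lay above the Dicer shRNA cells with metformin, and the control shRNA cells with metformin were lowest.

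miR-1246 separated all 4 groups, and so did other names described below, such as miR-21, miR-222 and miR-1308. How many of all names did so was not counted. In the comparisons of 2 groups, 37.0% to 91.8% of all names did not overlap. miR-1246 had signals of 19.03, 20.4 and 16.3 in Dicer shRNA cells with metformin. In control shRNA cells with metformin it had 4.44 and 4.52 on 2 arrays, and the array of replicate 2 did not detect it. It had 43.1, 41.9 and 49.7 in Dicer shRNA cells with vehicle and 105, 113 and 118 in control shRNA cells with vehicle. The highest group was thus control shRNA with vehicle and the lowest control shRNA with metformin, the opposite of miR-923.

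**Figure D1:**
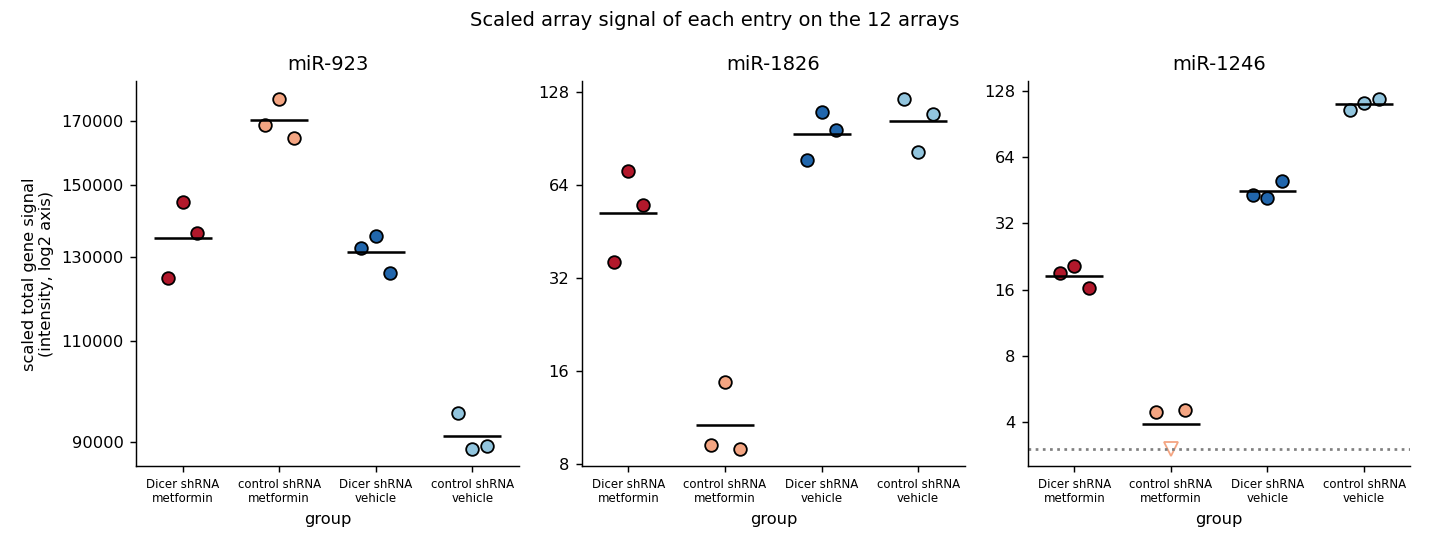
Scaled total gene signal (log2 axis, intensity) of miR-923, miR-1826 and miR-1246 in the 4 groups, 1 point per array with the mean of log2 values as a bar. The open triangle is the array that did not detect miR-1246, drawn at the floor of 3.01 (dotted line). miR-923 is highest and the other entries are lowest in control shRNA cells with metformin.

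For the tests, scaled signals under 3.01 were set to that floor and log2 was taken. A name was fitted if every array of some group detected it, which 208 human names met, and limma fitted them together with Benjamini-Hochberg adjustment over all 208. Differences below are on the log2 scale with the standard error, from 3 arrays per group, and a call is an adjusted p under 0.05.

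The first comparison, within slide 1, set Dicer shRNA cells given vehicle against control shRNA cells given vehicle. miR-1246 fell by 1.32 ± 0.16 (adjusted p = 6.1e-05), or 2.50-fold, to a mean log2 signal of 5.48 ± 0.132 (SD, n = 3) in Dicer shRNA cells, against 6.81 ± 0.0883 in control shRNA cells. miR-923 rose by 0.53 ± 0.09 (adjusted p = 0.00036), or 1.44-fold. miR-1826 differed by -0.14 ± 0.28 (adjusted p = 0.75), with a 95% interval of -0.77 to 0.50. So 2 of the 3 entries passed and had no overlap between groups, while 59.6% of all names tested passed, 21.6% higher and 38.0% lower, and 63.0% had no overlap. The median difference over all names was 0.00. The direction of miR-923 rests on the scaling: it was -0.67 (adjusted p = 0.0086) when arrays were scaled to viral names, and 0.12 without a call when scaled to the median. The viral names themselves had a median difference of 0.87 under the scaling used in the text. miR-923 stayed above 0 with a call when unscaled (0.38). The same held for the 75th percentile without the 3 entries (0.50) and the summed signal outside them (0.48). After quantile normalization it was 0 by construction. miR-1826 was 0.29 after quantile normalization and fell by 1.34 (adjusted p = 0.0047) after scaling to viral names, a call that no other scaling gave.

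With metformin, on slide 2, all 3 entries differed between the lines. miR-1826 rose in Dicer shRNA cells by 2.29 ± 0.28 (adjusted p = 0.00011), or 4.90-fold, to a mean log2 signal of 5.71 ± 0.494 (SD, n = 3), against 3.41 ± 0.405 in control shRNA cells. miR-1246 rose by 2.24 ± 0.16 (adjusted p = 1.8e-06), or 4.71-fold, a size limited by the floor because 1 of the 3 control shRNA arrays lay at it. miR-923 fell by 0.34 ± 0.09 (adjusted p = 0.010). All 3 passed and none had overlapping groups, where 38.9% of all names passed (13.9% higher, 25.0% lower) and 53.8% did not overlap. The median over all names was -0.24. The miR-923 call was lost without replicate 1 of the Dicer shRNA cells with metformin (adjusted p = 0.052), and in the authors' series matrix, where the difference was -0.21 (adjusted p = 0.16). Scaled to the summed human signal outside the 3 entries, miR-923 was 0.13 without a call. Scaled to viral names it was 0.00.

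The next comparison asked what metformin did in control shRNA cells. miR-1246 fell by 4.83 ± 0.16 (adjusted p = 1.2e-09) to a mean log2 signal of 1.97 ± 0.332 (SD, n = 3) with metformin, against 6.81 ± 0.0883 with vehicle. That is 28.5-fold, again limited by the floor on 1 metformin array. miR-1826 fell by 3.28 ± 0.28 (adjusted p = 1.5e-06), or 9.69-fold, and was detected on every array of both groups. miR-923 rose by 0.90 ± 0.09 (adjusted p = 3.0e-06), or 1.87-fold. All 3 passed without overlap, but so did most of the array: 88.0% of names passed, 47.6% higher and 40.4% lower, and 91.8% did not overlap. Against a median of 0.52 over all names, the miR-923 difference lay above 58.2% of names, that of miR-1826 above 14.9% and that of miR-1246 above 6.73%. miR-923 was -0.65 (adjusted p = 0.0095) when scaled to viral names and 0.19 without a call when scaled to the summed signal outside the 3 entries. miR-1826 and miR-1246 fell and passed under each of the 6 other scalings drawn in the plot of scalings.

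The same question in Dicer shRNA cells gave a call for miR-1246 alone. miR-1246 fell by 1.28 ± 0.16 (adjusted p = 0.00045), or 2.42-fold, to a mean log2 signal of 4.21 ± 0.165 (SD, n = 3) with metformin, against 5.48 ± 0.132 with vehicle. miR-1826 differed by -0.85 ± 0.28 (adjusted p = 0.056), below 0 with no overlap of the arrays but without a call. miR-923 differed by 0.04 ± 0.09 (adjusted p = 0.90), with a 95% interval of -0.15 to 0.23. The 1 call of 3 stands beside 24.5% of all names, 6.25% higher and 18.3% lower, and the 2 entries without overlap beside 37.0% of all names. With unscaled signals miR-1826 fell by 0.99 and passed (adjusted p = 0.018), and it also passed without replicate 1 of the vehicle cells (adjusted p = 0.039) or without replicate 2 of the metformin cells (adjusted p = 0.025). In the authors' series matrix miR-1246 fell by 0.89 and did not pass (adjusted p = 0.27).

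**Figure D2:**
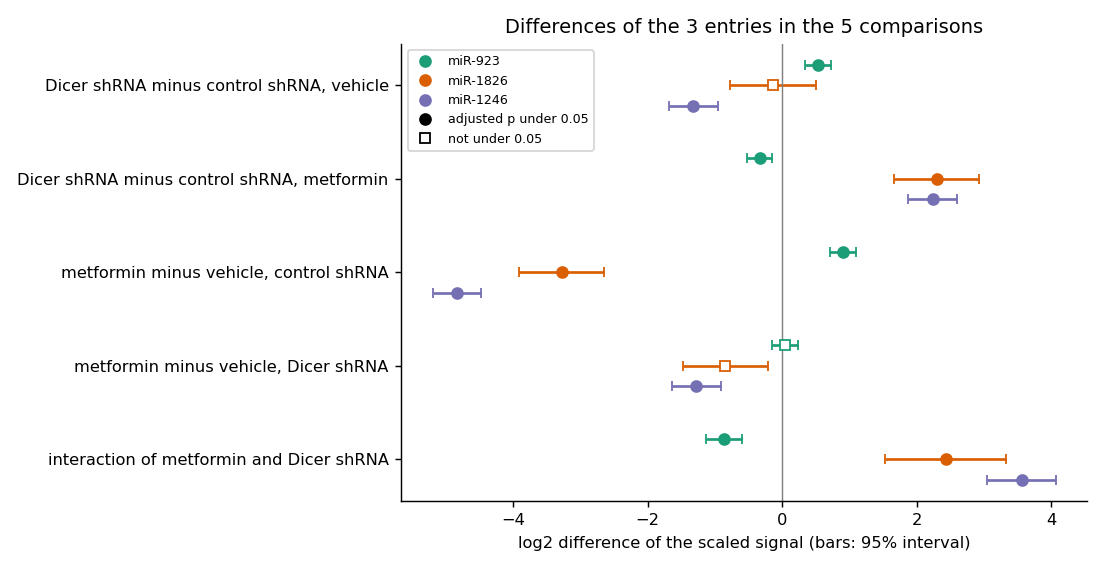
Log2 differences with 95% intervals (limma, 3 arrays per group) for the 3 entries in the 5 comparisons, with filled circles where the adjusted p was under 0.05 and open squares elsewhere. Under this scaling miR-923 lies on the other side of 0 from miR-1246 where both passed, with its side set by the scaling, and at 0.04 without a call for metformin in Dicer shRNA cells. The 2.24 to 2.29 rises of miR-1246 and miR-1826 in Dicer shRNA cells with metformin stand against -1.32 and -0.14 with vehicle.

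The difference between these effects was tested as the interaction, the Dicer shRNA minus control shRNA difference with metformin less that with vehicle. It was 3.56 ± 0.23 for miR-1246 (adjusted p = 5.9e-07), 2.43 ± 0.40 for miR-1826 (adjusted p = 0.00037) and -0.86 ± 0.12 for miR-923 (adjusted p = 0.00013). All 3 entries passed, as did 76.4% of all names tested, 37.0% above and 39.4% below 0. An effect of the slide shared by both lines cancels in this value, while one that differed by array position would not. The value of miR-923 was 0.67 (adjusted p = 0.046) after scaling to viral names and -0.34 without a call (adjusted p = 0.070) after scaling to the summed signal outside the 3 entries, and those of the other entries kept their sign and their call under each scaling.

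Because the scaling moves miR-923, the entries were also compared with each other within an array, where the scale factor cancels. It does not cancel for miR-1246 on the array that did not detect it, where the floor was used. Only the change of such a ratio between groups can be read, since each probe has its own brightness. The log2 ratio of miR-1826 to miR-923 was -11.75, -10.99 and -11.27 in Dicer shRNA cells with metformin and -14.17, -13.56 and -14.17 in control shRNA cells with metformin. It was -10.74, -10.26 and -10.35 in Dicer shRNA cells with vehicle and -9.61, -10.08 and -9.67 in control shRNA cells with vehicle. No 2 of these groups overlapped in any of the 4 comparisons. Ratios of other names were not computed, so no share over all names can stand beside this. Without a ratio, the scaled signals of 37.0% to 91.8% of all names did not overlap, depending on the comparison.

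In Dicer shRNA cells with vehicle the ratio of miR-1826 to miR-923 was 1.58-fold lower than in the control line, and with metformin it was 6.18-fold higher. With metformin it was 18.1-fold lower than with vehicle in control shRNA cells and 1.85-fold lower in Dicer shRNA cells. For miR-1246 to miR-923 the same comparisons gave a ratio 3.60-fold lower, 5.95-fold higher, 53.4-fold lower and 2.49-fold lower. Each of these 8 changes had an exact permutation p of 0.1, two-sided, the smallest that 3 against 3 arrays allow, and 0.12 after adjustment over the 12 ratio comparisons. Thus none can pass 0.05 in this design.

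For the ratio of miR-1826 to miR-1246, the groups overlapped in 2 of the 4 comparisons. With vehicle it was higher in the Dicer shRNA line than in the control line by 1.19 on the log2 scale, without overlap (exact permutation p = 0.1). With metformin the difference between the lines was 0.06 (exact permutation p = 1), and without 1 array it ran from -0.17 to 0.48. In control shRNA cells the ratio was higher with metformin than with vehicle by 1.56, or 2.95-fold, without overlap (exact permutation p = 0.1). In Dicer shRNA cells the same difference was 0.43, with overlap (exact permutation p = 0.3). On the array that did not detect miR-1246, the ratio was computed with miR-1246 at the floor.

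**Figure D3:**
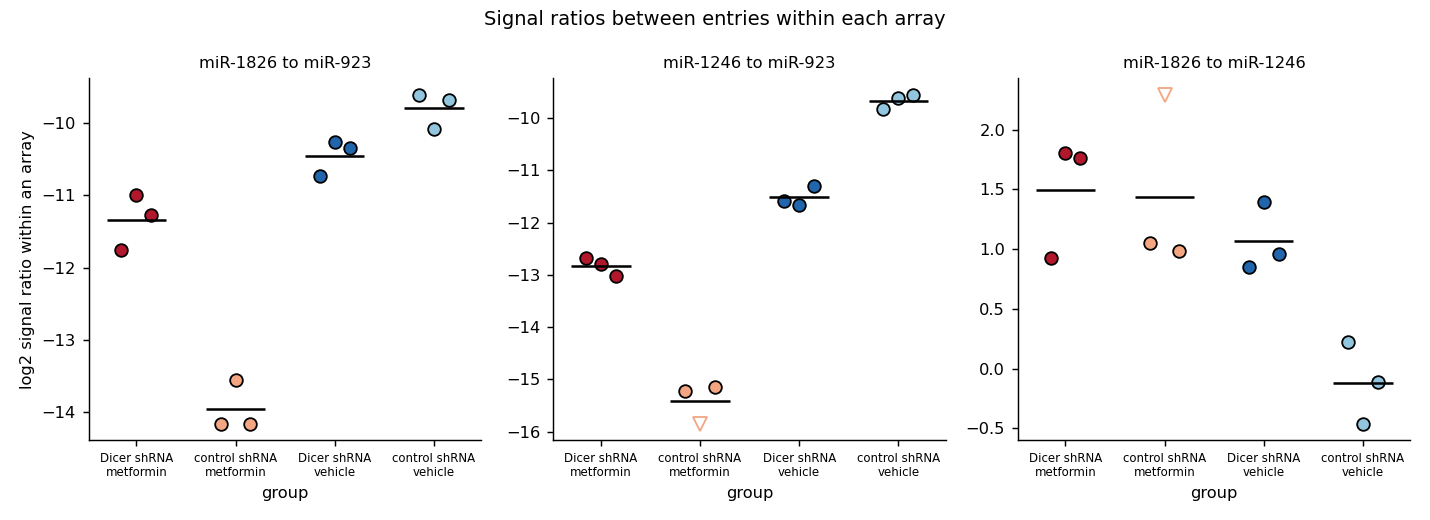
Log2 signal ratios within each array for the 3 pairs of entries, 1 point per array with the group mean as a bar. Open triangles mark the array on which miR-1246 was at the floor. Both ratios over miR-923 are lowest in control shRNA cells with metformin, between -14.17 and -13.56 for miR-1826 and between -15.85 and -15.15 for miR-1246.

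Shares of the summed human signal gave a further view, in which each signal is divided by the sum of its own array. Since miR-923 took 77.7% to 84.3% of that sum, the shares of miR-1826 and miR-1246 largely repeat their ratios to miR-923. The miR-923 share was higher in the Dicer shRNA line than in the control line by 5.09 percentage points with vehicle (exact permutation p = 0.1) and by 1.37 with metformin, where the groups overlapped (exact permutation p = 0.4). It was higher with metformin than with vehicle by 2.23 percentage points in control shRNA cells (exact permutation p = 0.1) and differed by -1.49 in Dicer shRNA cells (exact permutation p = 0.3). The shares of miR-1826 and miR-1246 did not overlap in any of their 8 comparisons, each with an exact permutation p of 0.1. Overlap was not counted for the shares of other names. In the scaled signals 37.0% to 91.8% of all names did not overlap, depending on the comparison. With vehicle the miR-1826 share was 0.0605% ± 0.0105 in Dicer shRNA cells and 0.0899% ± 0.0157 in control shRNA cells (SD, n = 3 each), groups whose scaled signals overlapped. With metformin the summed signal outside the 3 entries ran from 26130 to 28388 in Dicer shRNA cells and from 33760 to 37474 in control shRNA cells. With vehicle it ran from 25504 to 27748 in Dicer shRNA cells and from 26596 to 30196 in control shRNA cells.

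The names with the most similar profiles were found by the root mean square difference of log2 signals over the 12 arrays, each profile centred on its own mean. Nearest to miR-923 were miR-1914* (0.16), miR-320a (0.17) and miR-1234 (0.18), all detected on 12 arrays. Nearest to miR-1826 were miR-222 (0.33), miR-1308 (0.48) and miR-342-3p (0.50), and nearest to miR-1246 were miR-130b (0.28), miR-25 (0.31) and miR-342-3p (0.35). Of these, miR-130b and miR-342-3p were undetected on all 3 arrays of control shRNA cells with metformin and miR-25 on 2 of them. The distance between miR-1826 and miR-1246 was 0.77, and that from miR-923 was 1.61 to miR-1826 and 2.10 to miR-1246.

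miR-1826 and miR-1246 thus had canonical Dicer products among their nearest names. miR-222, encoded beside miR-221 and a repressor of the cell-cycle inhibitor p27, fell by 3.52 ± 0.13 with metformin in control shRNA cells (adjusted p = 2.5e-09) and fell by 0.78 ± 0.13 in Dicer shRNA cells (adjusted p = 0.0017). miR-25, of the miR-106b-25 cluster, fell by 4.88 ± 0.17 in control shRNA cells (adjusted p = 1.2e-09) and fell by 0.97 ± 0.17 in Dicer shRNA cells (adjusted p = 0.0019). miR-1308 is itself a tRNA fragment once listed as a microRNA, and fell by 2.65 ± 0.20 in control shRNA cells (adjusted p = 5.4e-07) and fell by 0.62 ± 0.20 in Dicer shRNA cells (adjusted p = 0.049). miR-1914*, a passenger strand, rose by 0.88 ± 0.14 with metformin in control shRNA cells (adjusted p = 0.00020) and was 0.26 ± 0.14 in Dicer shRNA cells (adjusted p = 0.22). As with miR-923, its value in control shRNA cells was -0.67 after scaling to viral names (adjusted p = 0.0029).

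**Figure D4:**
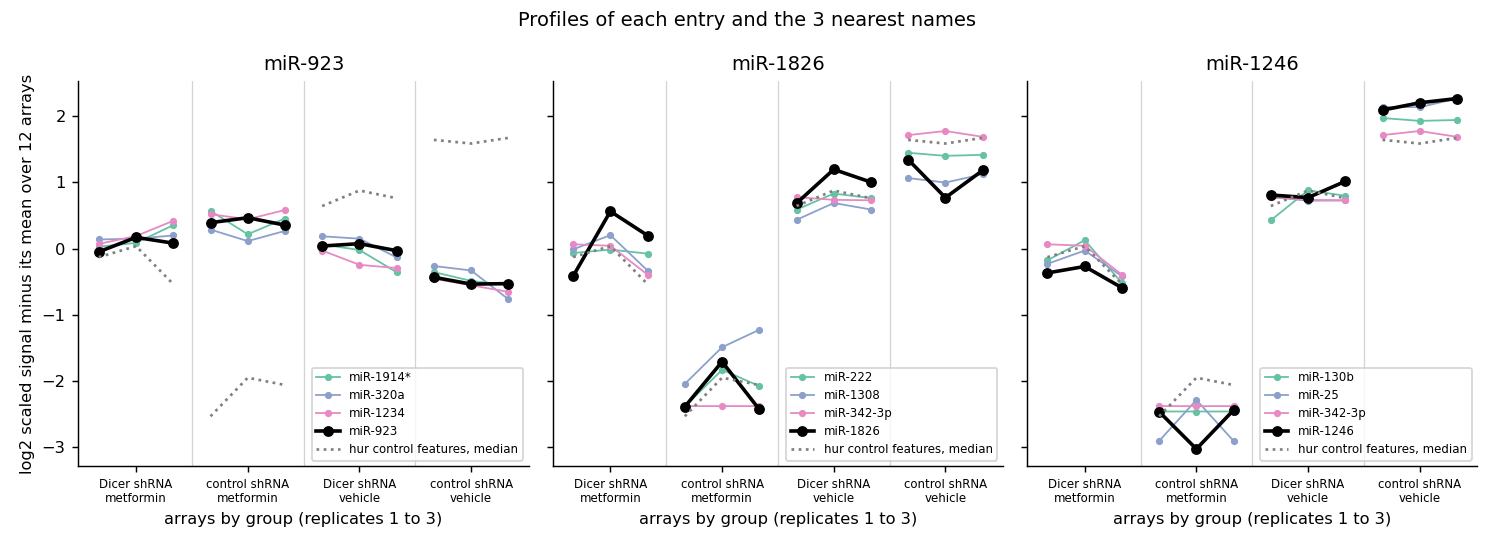
Log2 scaled signal minus its mean over the 12 arrays for each entry (black) and its 3 nearest names (colours), with arrays ordered by group, and the median of 4 hur control features as a dotted line. miR-1826 and miR-1246 dip in control shRNA cells with metformin as their neighbours and the hur features do, and miR-923 does not.

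Values of features outside the human names also differed between the groups, and not all in 1 direction. The 4 control features named hur that were detected on all arrays are not in the human set. Their median difference was -0.81 for Dicer shRNA against control shRNA with vehicle, 1.95 with metformin, -3.84 for metformin against vehicle in control shRNA cells and -0.999 in Dicer shRNA cells. All 4 had the sign of miR-1246 in each comparison, except that 1 of them turned for Dicer shRNA against control shRNA with metformin when arrays were scaled to the median. The control feature mr_1 had a mean scaled signal of 562 ± 56.8 with metformin and 5120 ± 150 with vehicle in control shRNA cells. miRNABrightCorner30 went the other way there, with 1271 ± 284 and 828 ± 239 (SD, n = 3 each). The 10 viral names detected on all arrays, no virus of which the labels place in these cells, had medians of 0.87, -0.49, 1.38 and 0.34. These medians have the sign of miR-923. That sign was shared by 9 of 10 names with metformin between the lines, 8 of 10 between treatments in Dicer shRNA cells, and 10 of 10 otherwise. Between treatments in Dicer shRNA cells, however, miR-923 differed by only 0.04 ± 0.09, without a call. Markers of blood cells, miR-223 and miR-486-5p, were detected on the 3 arrays of control shRNA cells with metformin alone, where their summed scaled signal was 15.2 to 20.4. The muscle markers miR-133a and miR-133b summed to 7.74 to 21.1 in Dicer shRNA cells with metformin, 24.9 to 29.9 in control shRNA cells with metformin, 0 to 6.52 in Dicer shRNA cells with vehicle and 0 to 4.41 in control shRNA cells with vehicle. The other 5 blood markers, miR-451 and miR-144 of red cells among them, and the other 2 muscle markers were detected on no array. The part of any of these values in the results was not tested.

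Other small-RNA fragments once listed as microRNAs did not share 1 pattern. All 6 tRNA fragments on the list were tested. In Dicer shRNA cells with vehicle 4 of the 6 fell and none rose (median -0.67), beside 38.0% of all names that fell and 21.6% that rose, among them miR-720, which fell by 1.16 ± 0.12 (adjusted p = 2.6e-05). With metformin 2 rose, miR-1308 by 1.54 ± 0.20 and miR-1274a by 0.60 ± 0.16, and 4 fell (median -0.51), beside 13.9% and 25.0% of all names, among them miR-1274b, which fell by 0.95 ± 0.17. With metformin against vehicle in control shRNA cells 3 fell: miR-1308 (above), miR-1274a at -1.27 ± 0.16 and miR-1260 at -0.69 ± 0.18. In that comparison 2 rose, miR-1274b by 1.11 ± 0.17 and miR-1280 by 0.51 ± 0.17. These 3 and 2 of 6 lie near the 40.4% and 47.6% of all names that fell and rose. In Dicer shRNA cells 1 rose and 1 fell, beside 6.25% and 18.3% of all names. So miR-1308 and miR-1274a had the signs of miR-1246 in both knockdown comparisons and with metformin in control shRNA cells, under every scaling tried. With vehicle none of the 6 rose under any scaling tried, and 4 to 6 fell except after quantile normalization, where 1 did. The counts with metformin moved more with the scaling. With metformin in control shRNA cells, none rose and 5 fell when scaled to viral names, where miR-1274b was -0.44 without a call. Between the lines with metformin, none fell when scaled to the summed signal outside the 3 entries.

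Of 9 names from snoRNA, vault RNA or U11 fragments, 6 were on the array and 1, miR-664, was detected and tested. miR-664, which overlaps a snoRNA, rose by 1.95 ± 0.37 with metformin in control shRNA cells (adjusted p = 0.00056) and fell by 1.64 ± 0.37 in Dicer shRNA cells against control shRNA cells with metformin (adjusted p = 0.0051). It was detected on 0 of 3 arrays of control shRNA cells with vehicle and on 1 of 3 of each Dicer shRNA group, so the floor sets these sizes. It entered the fit only through control shRNA cells with metformin, so the filter favoured these directions.

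Canonical microRNAs that need Dicer were set beside the entries. All 6 tested let-7 members, of 9 listed, fell in Dicer shRNA cells with vehicle (median -2.66). All 6 also fell with metformin in control shRNA cells (median -4.07). So did all 5 of miR-15a, miR-15b, miR-16, miR-103 and miR-107 in both comparisons (medians -2.57 and -2.99). Of all names tested, 38.0% and 40.4% were called lower in them. Apart from let-7b, let-7c and miR-15b, these names entered the fit only through control shRNA cells with vehicle. For those names the filter itself favoured a fall from that group, so their calls are not independent of it. The floor also sets much of the medians. In control shRNA cells with metformin 5 of the 6 let-7 members and 4 of the other 5 names were detected on no array, and in Dicer shRNA cells with vehicle 2 of the 6 and 3 of the 5. Quantile normalization left 5 of the 6 let-7 calls with vehicle and all the others. With metformin between the lines 2 let-7 members rose, let-7b by 2.63 ± 0.45 and let-7c by 1.30 ± 0.24, beside 13.9% of all names. None of the other family passed, with 3 of its 5 members undetected on all 6 arrays. miR-21, a bright canonical microRNA, had a mean scaled signal of 78.2 ± 20.1 in Dicer shRNA cells with metformin, 18.5 ± 7.49 in control shRNA cells with metformin, 171 ± 28.2 in Dicer shRNA cells with vehicle and 961 ± 95.5 (SD, n = 3 each) in the vehicle-treated control line. Its 4 groups stood in the same order as those of miR-1246. Its interaction was 4.62 ± 0.38, against 3.56 ± 0.23 for miR-1246 and 2.43 ± 0.40 for miR-1826.

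**Figure D5:**
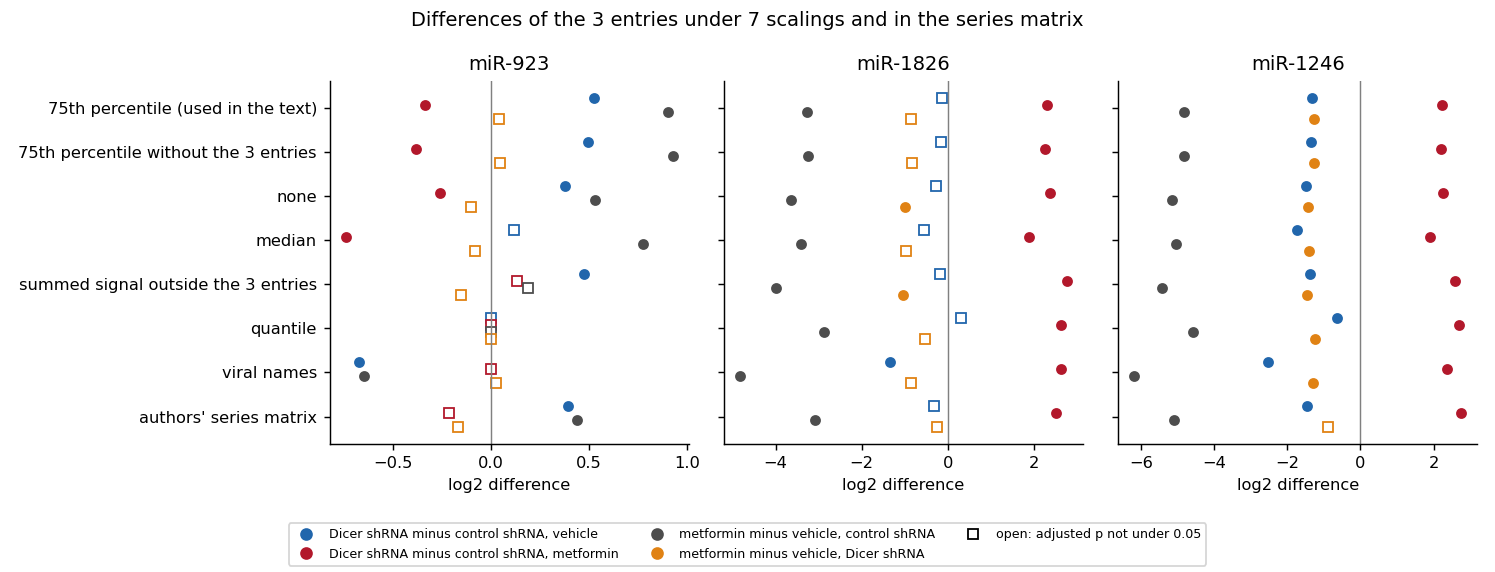
Log2 differences of the 3 entries in 4 comparisons under the scaling used in the text, 6 other scalings and the authors' series matrix, with filled circles where the adjusted p was under 0.05. miR-923 crosses 0 between scalings, from -0.67 to 0.53 for Dicer shRNA against control shRNA with vehicle, while miR-1246 stays on 1 side of 0 in each comparison. Scaling by the 75th percentile over all human names is left out, being the same as no scaling.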

How the data were processed

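Total RNA was hybridised with Cy3 to 1-colour Agilent human microRNA arrays, 12 arrays in 4 groups. The deposited files hold a total gene signal per name, an intensity on a linear scale, its error and a detection flag, per the file headers. Agilent Feature Extraction 9.1 is named in the submitters' processing notes. Undetected names hold 0.1 in the deposited files. The authors' series matrix holds 221 names as log2 values, with 0 at undetected names and at 3 detected values. It rises with the log2 array signal, at a slope of 1.06 to 1.09 on the vehicle arrays and 0.94 to 0.95 on the metformin arrays, so it was adjusted differently on the 2 slides. Its normalization and centring stay unknown, its column medians run from 3.19 to 4.06, and 71.4% of its values above or below 0 recur in another cell. The label protocol names an mRNA kit, and the source names of both metformin groups disagree with the titles, which set the groups.

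Arrays were scaled and floored (5th percentile of detected signals, median over arrays) as the results state, and fitted with 4 group means in limma 3.58.1 (R 4.3.3, 8 residual and 1.85 prior degrees of freedom), which was tested on simulated data. Ratios and shares used exact permutation tests (scipy 1.17.1). Python 3.11.15, numpy 2.4.6, pandas 2.3.3 and matplotlib 3.10.9 were used. No replicate pair shared a value among names that both arrays detected, and pairs differed by 1.08 to 2.65 times the error in the files (root mean square). Titles number biological replicates without naming separate cultures, so p-values measure the spread between these samples.

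The 3 entries and the lists were chosen with earlier results of these data known. The microRNAs named are the 3 entries, the 3 nearest profiles of each, the tested fragment lists, miR-21 and up to 4 of each canonical list. Same-numbered replicates were not paired: their deviations correlated at -0.18 to 0.32 across names, and not above 0.1 for every pair. Alternatives were other scalings, floors, filters, the series matrix, array weights, a replicate block, 2-group fits and leaving out each array.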

Additional observations from a re-analysis of the deposited data

Results flagged for a closer look

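The effect of the Dicer shRNA differed between metformin and vehicle for each of the 3 entries under the scaling used in the text, by the interaction test (limma, Benjamini-Hochberg over 208 names). The interaction was 3.56 for miR-1246, whose Dicer shRNA minus control shRNA difference was 2.24 with metformin and -1.32 with vehicle. It was 2.43 for miR-1826, with 2.29 and -0.14. It was -0.86 for miR-923, with -0.34 and 0.53, but this value depends on the scaling: it was 0.67 (adjusted p = 0.046) scaled to viral names and -0.34 (adjusted p = 0.070) scaled to the summed signal outside the 3 entries. After quantile normalization it was 0 by construction, since miR-923 is the brightest human name on each array. The arrays of the lines did not overlap for any of these differences except that of miR-1826 with vehicle. Of all names tested, 76.4% passed the same test, and the 4 hur control features had a median interaction of 2.84 and the viral names of -1.32. Their part in these values was not tested.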

How the results depend on the processing

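Of 603 values recomputed under another setting, 554 kept their direction and their call, or for counts and values without a test stayed close. For ratios and shares, close meant a shift smaller than the pooled SD of the 2 groups. Leaving out 1 of 3 arrays cannot shift a mean that far. Those ratio and share values were therefore close by construction, and their part of the 554 does not measure stability. Under 7 other scalings over 5 comparisons, 35 of 35 miR-1246 values, 30 of 35 miR-1826 values and 19 of 35 miR-923 values did so. Among these 7, no scaling and the 75th percentile over all human names gave the same values, and both were counted. The quantile values of miR-923, fixed in advance at 0, were counted as well. For Dicer shRNA against control shRNA with vehicle, miR-923 was 0 after quantile normalization, 0.12 scaled to the median and -0.67 to viral names, and miR-1826 was 0.29 (quantile), -1.34 (viral names) and 0.14 (array weights). With metformin, miR-923 was 0 (quantile), 0.13 (summed signal outside the 3 entries), -0.00079 (viral names) and -0.21 (series matrix). For metformin against vehicle in control shRNA cells, miR-923 was 0 (quantile), 0.19 (summed signal) and -0.65 (viral names). In Dicer shRNA cells, where it was not called, miR-923 was -0.10 (no scaling, or all human names, which is the same because that percentile is the undetected value on each array), -0.080 (median), -0.15 (summed signal), -0.17 (series matrix) and -0.0031 (array weights). There miR-1826 passed at -0.99 (no scaling or all human names), -1.04 (summed signal), -0.68 (an offset of 16 for the floor), -0.85 (names detected on all 12 arrays) and -1.10 (array weights), and miR-1246 did not at -0.89 (series matrix). The miR-923 interaction was 0 (quantile), -0.34 (summed signal) and 0.67 (viral names). The quantile values of miR-923 are 0 by construction, since it is the brightest name on each array; for the others the cause was not tested. In the series matrix the log2 ratio of miR-1826 to miR-923 changed by -3.52 with metformin in control shRNA cells and -0.071 in Dicer shRNA cells, and that of miR-1246 to miR-923 by 2.97 between the lines with metformin and -0.72 with metformin in Dicer shRNA cells. Fewer names tested (98, detected on all arrays) gave 64, 44, 86, 28 and 72 calls in the 5 comparisons, against 124, 81, 183, 51 and 159, and no miR-1246 value. Between the lines with metformin the count was 129 scaled to the median and 126 with array weights. In Dicer shRNA cells it was 24 with all human names fitted, 82 with array weights (a fit that stopped before convergence) and 19 with the 2 groups alone. Leaving out 1 array gave 32 (without Dicer shRNA metformin replicate 3) to 71 calls there, and -0.0104 to 0.10 for miR-923 and -1.07 to -0.58 for miR-1826. It gave -0.39 to -0.28 for miR-923 between the lines with metformin, and -0.30 to 0.0021 for miR-1826 between the lines with vehicle. Scaling to viral names moved the median of all names by -0.998, 0.24, -1.43, 0 and 1.46 in the 5 comparisons. With the replicate number as a block, counts were 124, 83, 182, 47 and 159 and every call of the 3 entries stayed; 2 to 3 of 6 arrays per comparison correlated best with their own number. The scalings of the lists and of the hur features were added after seeing the data. Signal near the floor limits miR-1246 in control shRNA cells with metformin.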
